A study of Homo sapiens with 3 samples.

Results

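The genes described here encode the cyclins of types A, B, D and E, the numbered cyclin-dependent kinases (CDKs), the CDK inhibitors and the E2F transcription factors. They were chosen by gene symbol among the protein-coding genes of GENCODE 44 mapped to the human genome hg19, which gave 45 of 20163 genes, namely 10 cyclins, 19 CDKs, 8 inhibitors and 8 E2F factors. The rule itself uses no measured value, although it was set with earlier results of these data known. Histone modification regions were mapped by chromatin immunoprecipitation followed by sequencing (ChIP-seq) in untreated H2087 cells, an established human lung adenocarcinoma line grown in culture. The antibody recognised trimethylated lysine 4 of histone H3 (H3K4me3) in 1 library and acetylated lysine 27 (H3K27ac) in another, and the third, from input chromatin, was not analysed here. Each mark thus had n = 1, in a single cell line without a normal or treated counterpart, and no value below has a replicate error or a test.

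Cyclins are the regulatory subunits that activate CDKs, and the inhibitors of the INK4 and CIP/KIP families hold these kinases back. D-type cyclins with CDK4 or CDK6, and then E-type cyclins with CDK2, phosphorylate the retinoblastoma protein, which releases E2F factors to switch on the genes of DNA replication. H3K4me3 typically marks promoters in use, whereas H3K27ac marks both such promoters and active enhancers.

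The deposited lists held 18585 distinct H3K4me3 intervals and 24096 distinct H3K27ac intervals, called peaks by the authors' peak caller. Each interval carries a −log10 q, which gives the strength of evidence for enrichment at that place within its own list and had a median of 2.97 for H3K4me3 and 2.65 for H3K27ac. Deeper sequencing and a higher local copy number both raise it. Read counts were not part of the lists, so the depth is unknown and a start without an interval cannot be told from a start with too few reads. Of 10 epithelial marker genes, 7 carried H3K4me3 and 7 carried H3K27ac at the start, including NKX2-1, CDH1 and 4 keratin genes with both, whereas NAPSA and SFTPB carried neither. None of the 10 leukocyte, endothelial and fibroblast markers found in the annotation carried either mark at the outermost start. At the start of the transcript that represents the gene in the annotation, the leukocyte marker CD14 carried H3K4me3.

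A gene start was taken as the outermost annotated 5′ end of the gene, and it was counted as marked when the edge of an interval lay within 1 kb. H3K4me3 marked 23 of the 45 starts (51.1%), against 38.2% of all protein-coding starts. H3K27ac marked 13 (28.9%), against 23.6% of all starts. Both marks were found at 12 starts (26.7%, against 18.6%), H3K4me3 without H3K27ac at 11 (against 19.6%), H3K27ac without H3K4me3 at 1 (against 4.99%) and neither mark at 21 (46.7%, against 56.8%). At all 12 starts with both marks the intervals of the marks had at least 1 bp in common, as they did at 83.6% of the 3746 starts with both marks in the genome.

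The starts with both marks belonged to CCND1, CCNB2, CDK4, CDK5, CDK12, CDK13, CDKN1C, E2F1, E2F2, E2F3, E2F4 and E2F7. H3K4me3 alone was found at CCNA2, CCNB1, CCNE2, CDK1, CDK2, CDK8, CDK16, CDK17, CDK18, E2F6 and E2F8. H3K27ac alone was found at CDK19. The starts of CCNA1, CCNB3, CCND2, CCND3, CCNE1, CDK3, CDK6, CDK7, CDK9, CDK10, CDK14, CDK15, CDK20, CDKN1A, CDKN1B, CDKN2A, CDKN2B, CDKN2C, CDKN2D, CDKN3 and E2F5 carried neither.

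**Figure D1:**
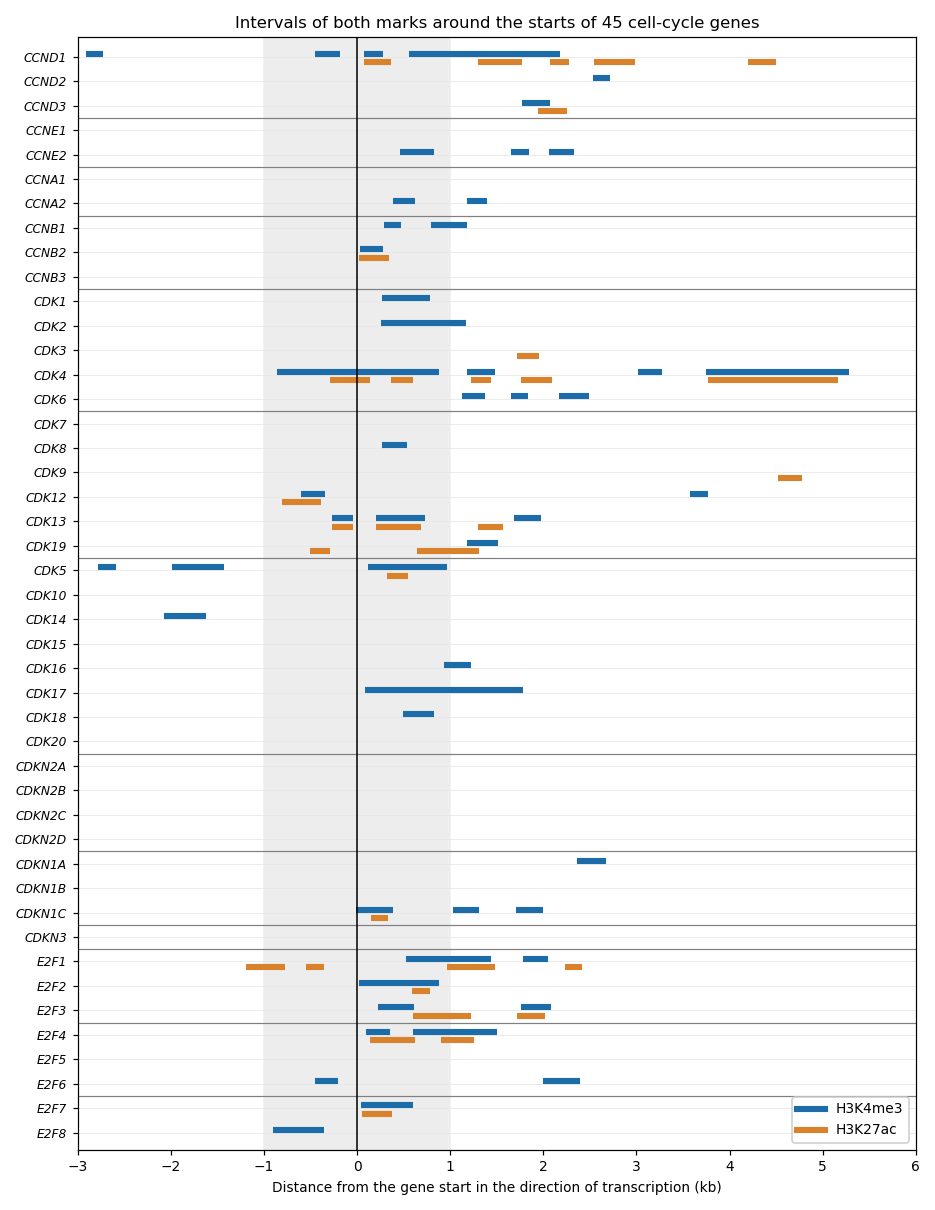
Intervals of H3K4me3 (blue) and H3K27ac (orange) around the outermost annotated start of each of the 45 genes, drawn to scale against the distance from the start in kb in the direction of transcription, with the 1 kb used for counting shaded. Most marked starts have their intervals just downstream, CDK4 has the widest H3K4me3 interval (1743 bp), and 21 rows have no interval in the shaded band.

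The number of marked starts varied among the classes, which were not tested against each other. Among the E2F factors, 7 of 8 starts carried H3K4me3 and 5 of 8 carried H3K27ac. Among the cyclins the counts were 5 and 2 of 10, and among the CDKs 10 and 5 of 19. Of the 8 inhibitors, 1 carried H3K4me3 and the same gene, CDKN1C, carried H3K27ac.

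The count for the inhibitors depended on which start was used. At the start of the canonical transcript, which the annotation gives as the representative of each gene, 4 of 8 inhibitors carried H3K4me3 and 3 carried H3K27ac. The outermost start belongs to the longest reach of the gene and can lie far upstream of the representative promoter, by 31870 bp in CDKN1B and 129897 bp in CDK14. Over all 45 genes, the canonical start raised the counts to 28 with H3K4me3 (62.2%, against 41.8% of 19881 canonical starts) and 17 with H3K27ac (37.8%, against 25.5%). The canonical counts were 6 and 5 of 8 for the E2F factors, 5 and 3 of 10 for the cyclins, and 13 and 6 of 19 for the CDKs.

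**Figure D2:**
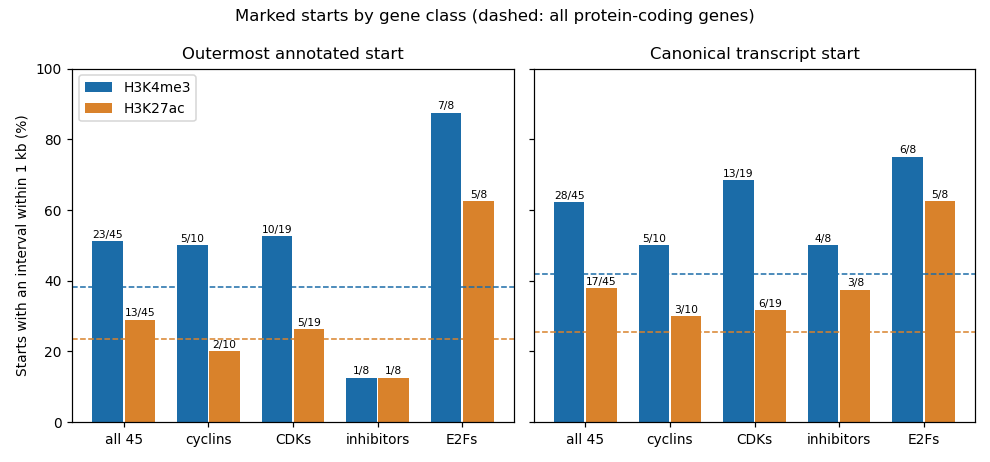
Share of starts with an interval within 1 kb (%, linear axis from 0), for all 45 genes and for each class, at the outermost annotated start (left) and at the canonical transcript start (right), with H3K4me3 in blue, H3K27ac in orange and the shares over all protein-coding genes as dashed lines. The bars of the inhibitors rise from 1 of 8 on the left to 4 of 8 and 3 of 8 on the right, while the E2F factors have the highest H3K4me3 share on both sides.

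The activator E2F genes, E2F1, E2F2 and E2F3, encode the factors that turn on replication genes when the retinoblastoma protein is phosphorylated, and all 3 carried both marks. E2F1 (chr 20, minus strand, start at 32274191) had an H3K4me3 interval of 909 bp at 32272756 to 32273664, in an intron, with a −log10 q of 3.54. It had 3 H3K27ac intervals within 1 kb, 1 of 522 bp that overlapped the H3K4me3 interval (−log10 q of 4.01) and 2 upstream of the gene (1.89 and 1.74). The H3K27ac length over E2F1 and its 10 kb flanks, 1741 bp, was the longest of the E2F class.

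E2F2 (chr 1, minus strand, start at 23857725) had 857 bp of H3K4me3 at 23856846 to 23857702 over exon 1, with a −log10 q of 2.92. Its H3K27ac interval of 190 bp lay inside that region and had a −log10 q of 1.33, near the lowest value of the list. Within their own lists these E2F2 intervals stood at percentile 44.2 for H3K4me3 and 0.334 for H3K27ac. E2F3 (chr 6, plus strand, start at 20402110) showed the opposite order of percentiles. Its H3K4me3 interval of 382 bp had a −log10 q of 1.41, higher than 4.32% of the H3K4me3 list. Its H3K27ac interval of 616 bp had the highest H3K27ac value of the class, 6.42, higher than 96.9% of the H3K27ac list. These intervals shared 3 bp. A further pair of intervals, 1722 bp (H3K27ac, 296 bp wide) and 1760 bp (H3K4me3, 325 bp wide) downstream of the start, also overlapped.

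Sequences upstream of these starts are shown because they hold the letters that E2F proteins are known to bind. Each is the 150 bases before the outermost start, 5′ to 3′ on the strand of the gene, read from hg19. They are chr20:32274192-32274341 (minus strand) for E2F1, chr1:23857726-23857875 (minus) for E2F2 and chr6:20401960-20402109 (plus) for E2F3. Capitals mark the E2F letters (TTTCCCGC, TTTCGCGC, TTTGGCGC or TTTGCCGC on either strand), the cell cycle homology region (CHR) letters TTTGAA, which the MuvB complex is known to bind, and the CCAAT letters bound by NF-Y.
E2F1: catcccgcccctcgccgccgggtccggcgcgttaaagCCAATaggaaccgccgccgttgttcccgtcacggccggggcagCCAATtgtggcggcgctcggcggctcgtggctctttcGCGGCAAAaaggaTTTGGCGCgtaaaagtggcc
E2F2: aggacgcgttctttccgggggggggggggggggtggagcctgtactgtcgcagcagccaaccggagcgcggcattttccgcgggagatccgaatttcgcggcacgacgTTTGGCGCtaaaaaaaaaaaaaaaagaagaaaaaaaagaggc
E2F3: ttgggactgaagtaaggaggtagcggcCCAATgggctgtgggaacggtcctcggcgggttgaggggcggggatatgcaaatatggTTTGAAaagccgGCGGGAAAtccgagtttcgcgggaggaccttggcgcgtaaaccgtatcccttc
E2F1 held E2F letters in 2 places and E2F2 and E2F3 in 1 place each. E2F3 also held the CHR letters. A match is a description of the sequence, and binding was not measured.

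Of the repressor E2F genes, E2F4 carried both marks, E2F6 carried H3K4me3 and E2F5 carried neither. E2F4 (chr 16, plus strand, start at 67226058) had 2 H3K4me3 intervals, 264 and 898 bp wide with −log10 q of 3.75 and 6.19, and 2 H3K27ac intervals of 477 and 353 bp (3.12 and 2.64). The H3K4me3 length over E2F4 and its flanks, 2605 bp in 5 intervals, was the longest of the E2F class, and 3 of these intervals lay at the starts of MATCAP1 and ELMO3. E2F6 had a single start interval of 245 bp, upstream, with a −log10 q of 1.73. The start of E2F5 lay 42309 bp from the nearest H3K4me3 interval, which lay at the adjacent starts of CA13 and RBIS, and no H3K27ac interval lay within 1 Mb.

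The atypical E2F genes, E2F7 and E2F8, encode repressors that bind DNA without a DP partner. E2F7 (chr 12, minus strand, start at 77459349) had the highest H3K4me3 value of the class, a −log10 q of 6.30 over 558 bp at 77458754 to 77459311, and an H3K27ac interval of 315 bp (3.55) inside it. E2F8 had an H3K4me3 interval of 549 bp with a −log10 q of 5.41, 356 bp upstream of the outermost start. It was counted as unmarked at the canonical start, from which the same interval lay 1031 bp away.

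**Figure D3:**
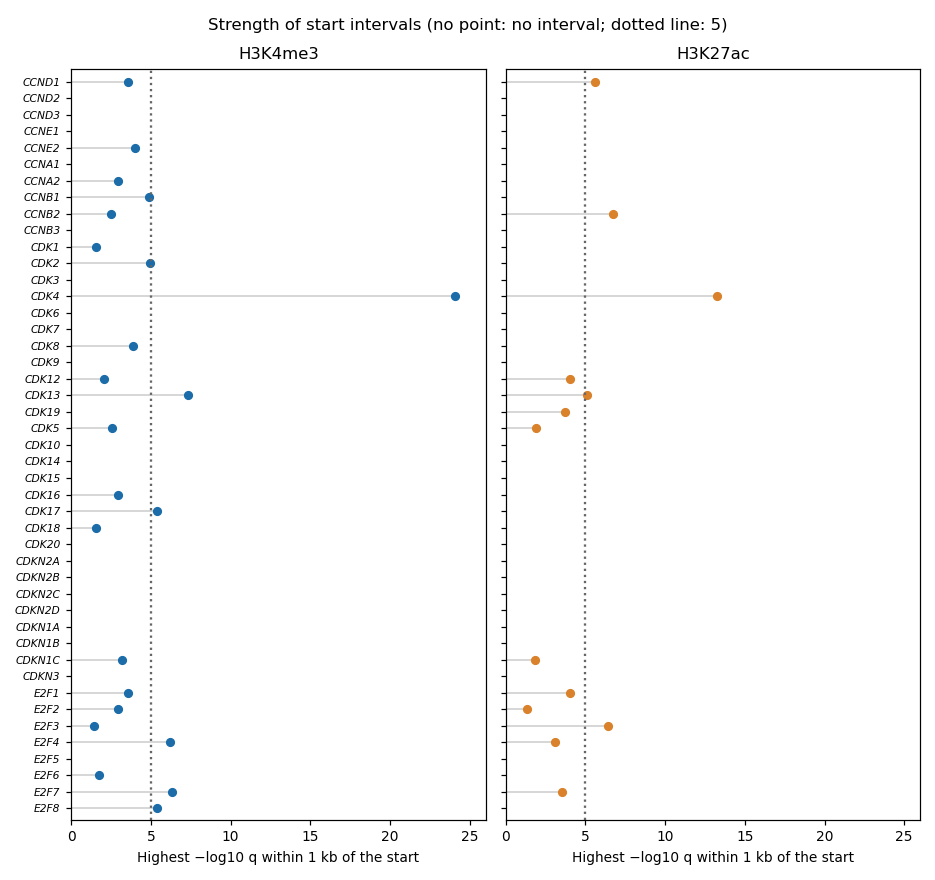
Highest −log10 q of the intervals within 1 kb of the outermost start of each of the 45 genes, for H3K4me3 (left) and H3K27ac (right), on linear axes, where a missing point means no interval and the dotted line marks a value of 5. CDK4 stands at 24.1 and 13.2, and the other genes lie at or below 7.36 for H3K4me3 and 6.73 for H3K27ac.

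Among the cyclins, CCND1 and CCNB2 carried both marks. CCND1 encodes cyclin D1, the partner of CDK4 and CDK6 that links growth signals to the cell cycle. Its start (chr 11, plus strand, 69455924) had 3 H3K4me3 intervals, of which the widest, 1632 bp at 69456477 to 69458108, reached over exon 2. Their −log10 q values were 2.79, 3.04 and 3.58, and the H3K27ac interval at the start, 289 bp over exon 1, had 5.62. Over the gene and its flanks CCND1 had 2969 bp under H3K4me3 and 2735 bp under H3K27ac, the longest lengths of the cyclin class for both marks. Within 1 Mb of its start lay 106 H3K27ac and 51 H3K4me3 intervals. Such counts also surrounded starts without marks, for example 110 and 58 at CDK9.

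The other D-type cyclin genes had their intervals farther from the outermost start. CCND2 had a single H3K4me3 interval, 186 bp with a −log10 q of 1.34, which lay 2533 bp downstream of the outermost start and 1273 bp from the canonical start. CCND3 had overlapping intervals of both marks 1775 and 1938 bp downstream of the outermost start. Its canonical start lies 108549 bp away and carried H3K27ac over 613 bp (2.16) without H3K4me3.

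Cyclin E drives CDK2 at the entry into DNA replication, and its genes differed. CCNE2 had an H3K4me3 interval of 365 bp at the start with a −log10 q of 3.98, and NDUFAF6 starts within 1 kb of the same interval. CCNE1 had no interval of either mark over the gene and its flanks. The nearest H3K4me3 interval lay 1834197 bp from its start and the nearest H3K27ac interval 2560438 bp away.

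Cyclins A2 and B1, which act with CDK2 and CDK1 in replication and mitosis, had H3K4me3 without H3K27ac. CCNA2 had an interval of 245 bp over exon 1 with a −log10 q of 2.97. CCNB1 had the highest H3K4me3 value of the cyclin class, 4.89 over 386 bp at chr 5, 68463760 to 68464145, across exons 2 and 3. CCNB2 (chr 15, plus strand, start at 59397325) had the highest H3K27ac value of the class, 6.73 over 323 bp at 59397345 to 59397667, and its H3K4me3 interval of 248 bp (2.49) lay wholly within it. The germline cyclin genes CCNA1 and CCNB3 had no interval of either mark over gene and flanks.

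The upstream sequences of CCND1, CCNB2 and CCNE1 are shown with the same letters in capitals, the first 2 as cyclin starts with both marks and the last as one without either. The regions are chr11:69455774-69455923, chr15:59397175-59397324 and chr19:30302748-30302897, all on the plus strand of hg19.
CCND1: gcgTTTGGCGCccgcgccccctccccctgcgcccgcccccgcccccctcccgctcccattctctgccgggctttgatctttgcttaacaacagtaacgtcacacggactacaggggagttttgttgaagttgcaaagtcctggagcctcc
CCNB2: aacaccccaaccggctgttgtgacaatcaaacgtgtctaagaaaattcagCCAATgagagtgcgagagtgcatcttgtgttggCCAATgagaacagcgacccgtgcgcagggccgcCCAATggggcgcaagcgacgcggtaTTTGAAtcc
CCNE1: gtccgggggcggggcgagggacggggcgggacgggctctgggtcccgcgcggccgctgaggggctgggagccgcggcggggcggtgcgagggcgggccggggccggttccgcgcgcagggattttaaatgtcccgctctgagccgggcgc
CCND1 held E2F letters in 1 place and CCNB2 held CHR letters in 1 place and CCAAT letters in 3. CCNE1 held none of these letters in the 150 bases.

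Of the cell-cycle kinases, CDK4 carried both marks, CDK1 and CDK2 carried H3K4me3, and CDK3 and CDK6 carried neither. CDK4 (chr 12, minus strand, start at 58149796) had the highest values of the 45 genes. Its H3K4me3 interval at 58148915 to 58150657 was 1743 bp wide with 4 summits and a −log10 q of 24.1, and the start of MARCHF9 lay within 1 kb of the same interval, so the signal cannot be assigned to either gene. The strongest H3K27ac interval at this start had 13.2 over 429 bp, and MARCHF9 starts within 1 kb of it as well. At the canonical start, 3703 bp downstream, H3K4me3 covered 1540 bp at 58144515 to 58146054 (25.3) and H3K27ac 1394 bp at 58144634 to 58146027 (21.4), over exons of the gene.

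Values around CDK4 were high as well. Within 1 Mb of its start, 82 H3K4me3 intervals had a median −log10 q of 4.27 and 102 H3K27ac intervals a median of 3.83, against 2.97 and 2.65 over the lists. Over CDK4 and its flanks lay 9 intervals of each mark, with a length of 6645 bp under H3K4me3 and 4538 bp under H3K27ac, the longest of all 45 genes. Several of these intervals of both marks lay within 1 kb of the starts of MARCHF9 or TSPAN31, so the lengths belong only in part to CDK4. The part that local copy number has in these values was not tested.

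CDK2, the partner of cyclins E and A, had an H3K4me3 interval of 908 bp with a −log10 q of 4.95 over exons 1 and 2. CDK1, the mitotic kinase, had 512 bp with 1.55. CDK6 had 3 H3K4me3 intervals in an intron, the nearest 1124 bp from the start, just outside the limit of 1 kb, and no H3K27ac interval over gene and flanks. The start with H3K4me3 nearest to the limit was that of CDK16, at 928 bp, and the H3K4me3 interval of CDK19 lay outside at 1178 bp.

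Transcriptional CDKs mainly phosphorylate RNA polymerase II or the Mediator complex. CDK13 had 2 intervals of each mark at the start, with the highest values of 7.36 for H3K4me3 and 5.12 for H3K27ac. CDK12, its close relative, had 1 interval of each mark upstream of the start (2.03 and 4.0). The Mediator kinases differed in their marks. CDK8 had H3K4me3 over 276 bp (3.87) and no H3K27ac over gene and flanks, whereas CDK19 had 2 H3K27ac intervals, of which the larger, at chr 6, 111135853 to 111136517, was the widest H3K27ac interval of the CDK class at an outermost start (665 bp, 3.71). At the canonical start CDK19 also carried H3K4me3 (2.26). That H3K4me3 interval overlapped the larger H3K27ac interval and lay 1178 bp from the outermost start, outside the limit of 1 kb. CDK7, a subunit of TFIIH that also activates other CDKs, had no interval of either mark over gene and flanks. CDK9, the kinase of P-TEFb, had no interval at its start and a single H3K27ac interval of 263 bp over exon 7.

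The other CDKs include CDK5, best known from neurons, and less studied kinases. CDK5 had 851 bp of H3K4me3 (2.59) and 232 bp of H3K27ac (1.87), and the H3K4me3 interval covered the start of SLC4A2, a neighbouring gene. CDK16, CDK17 and CDK18 carried H3K4me3 without H3K27ac, with −log10 q of 2.97, 5.36 and 1.55, and the interval of CDK17 was 1696 bp wide with 3 summits. CDK10 and CDK14 carried neither mark at the outermost start. At the canonical start CDK10 had H3K4me3 (3.30) and CDK14 had both marks (1.55 for each). CDK15 had a single H3K27ac interval of 418 bp (4.32), 6246 bp downstream of the start, and CDK20 had no interval.

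Of the INK4 genes, which encode inhibitors of CDK4 and CDK6, none of 4 was marked at the outermost start and CDKN2C alone carried both marks at the canonical start, 9500 bp downstream. Its intervals there were 281 bp of H3K4me3 (2.97) and 190 bp of H3K27ac (3.55). CDKN2A, which also encodes the ARF protein from a separate first exon, CDKN2B and CDKN2D had no interval of either mark over gene and flanks. The outermost start of CDKN2A lies 20444 bp from its canonical start, and none of its 13 annotated transcript starts was marked.

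The CIP/KIP genes encode inhibitors of CDK2 complexes. CDKN1C (chr 11, minus strand, start at 2907005) was the inhibitor with both marks at the outermost start, 390 bp of H3K4me3 at 2906624 to 2907013 (3.21) and 185 bp of H3K27ac (1.81). Stronger H3K27ac lay 5217 and 6079 bp upstream, in intervals of 503 bp (5.12) and 647 bp (6.71), and its 1335 bp under H3K27ac were the longest of the inhibitor class. CDKN1A, a target of p53, had an H3K4me3 interval of 307 bp (4.54) that lay 2363 bp from the outermost and 109 bp from the canonical start, with no H3K27ac over gene and flanks. CDKN1B had both marks at the canonical start, with highest values of 5.47 for H3K4me3 and 4.0 for H3K27ac, and its 1185 bp under H3K4me3 were the longest of the class. CDKN3, a phosphatase that acts on CDK2, had no interval over gene and flanks.

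In total 9 genes had no interval of either mark over the gene and 10 kb on each side, namely CCNA1, CCNB3, CCNE1, CDK7, CDK20, CDKN2A, CDKN2B, CDKN2D and CDKN3. Over all protein-coding genes, 35.3% had none. Their surroundings differed. CDK7 and CDKN3 lay among marked genes, with H3K4me3 at 8 of 13 and 8 of 12 other coding starts within 1 Mb. CCNE1 had none of 7 and CCNB3 none of 35, and CDKN2A and CDKN2B had 1 of 21.

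The unmarked stretches differed in length. Between the H3K4me3 intervals on either side of the start lay 91.1 kb at CDK7, 488 kb at CDKN2D, 661 kb at CDK20 and 1110 kb at CCNA1, and at CDKN3 (chr 14) the stretch ran from 54701276 to 54955950. Long stretches also adjoined marked starts, since the interval at the start of E2F7 was followed by 1800 kb upstream of the gene without H3K4me3, and that of CDK17 by 89.2 kb. On chr 9, no H3K4me3 interval lay between 17269124 and 22447012, a gap of 5180 kb that holds CDKN2A and CDKN2B, and the H3K27ac gap spanned 9810 kb. Around CCNE1 on chr 19 the H3K4me3 gap was 4400 kb, from 27732326 to 32137095. The H3K27ac gap there was 12100 kb, from 20748580 to 32863336. Around CCNB3 on chr X the H3K4me3 gap was 4050 kb. Of the 32-base words of hg19 around the starts, taken every 20 bases, 0% at CDKN2A, CDKN2B, CDK7 and CCNA1, 1.01% at CCNE1, 4.04% at CCNB3 and at CDKN2D, 7.07% at CDKN3 and 12.1% at CDK20 occurred more than 1 time in the genome. These words cover only 1 kb on either side of each start, so unsequenced or repeated stretches elsewhere in the gaps were not examined. The part that local copy number has in these gaps was not tested.

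For the 23 genes with H3K4me3 at the start, a median of 50% of the other coding starts within 1 Mb carried H3K4me3, against 28.2% for the 22 genes without. Over all coding genes the medians were 48.5% and 33.3%, in the same order.

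**Figure D4:**
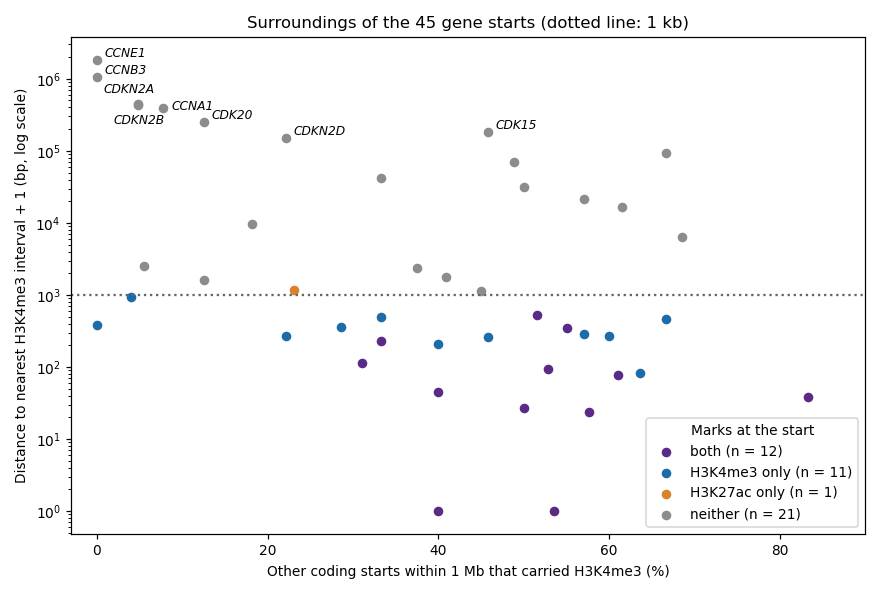
Distance from the outermost start of each of the 45 genes to the nearest H3K4me3 interval (bp plus 1, log axis) against the share of other coding starts within 1 Mb with H3K4me3 (%), coloured by the marks at the start, with a dotted line at 1 kb. CCNE1 and CCNB3 lie at the top left, more than 1 Mb from any H3K4me3 interval and with 0% of neighbours marked, whereas unmarked starts on the right lie among marked neighbours.

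Intervals lay mostly inside the genes. Each interval at the 45 starts was oriented to the member gene. Over all coding starts, an interval near several starts was kept for a single gene, which set its direction. Of the 28 H3K4me3 intervals at the 45 starts, 82.1% were centred downstream of the start, with a median centre of 433.75 bp, against 72.4% and 370 bp for the 8517 intervals at all coding starts. Their median width was 384 bp (range, 179 to 1743), against 359 bp, and their median −log10 q was 3.13, against 3.54. Of the 19 H3K27ac intervals 68.4% were centred downstream (67.1% over all), with a median width of 323 bp (range, 185 to 665), against 309 bp, and a median −log10 q of 3.55, against 2.82. With a −log10 q of at least 5 required, H3K4me3 remained at 6 starts (13.3%, against 10.7% of all), those of CDK4, CDK13, CDK17, E2F4, E2F7 and E2F8. H3K27ac remained at 5 (11.1%, against 3.53%), those of CCND1, CCNB2, CDK4, CDK13 and E2F3.

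Over each gene with 10 kb on either side, the median length under H3K4me3 was 512 bp, against 252 bp over all protein-coding genes, and that under H3K27ac was 190 bp, against 0 bp. The 45 genes were shorter, with a median of 17.6 kb against 27.2 kb. An interval was present over 33 genes (73.3%, against 56.8%) for H3K4me3 and over 24 (53.3%, against 48.9%) for H3K27ac.

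**Figure D5:**
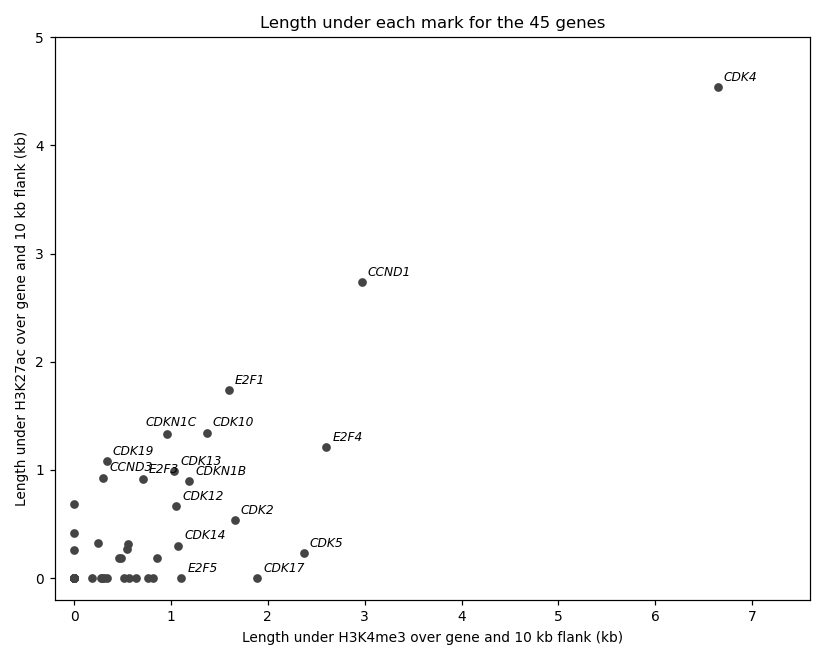
Length under H3K27ac against length under H3K4me3 (kb, linear axes) over each of the 45 genes with 10 kb of flank, where each point is a gene. CDK4 at 6645 and 4538 bp and CCND1 at 2969 and 2735 bp lie apart from the rest, and 9 genes share the point at 0. The lengths include intervals at the starts of neighbouring genes.

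Of the 62 H3K27ac intervals over the genes and flanks, 24 lay more than 3 kb from the outermost start of every coding gene, in the windows of 16 genes. Inside the gene lay 12 of them, and 5 overlapped H3K4me3. When the starts of all transcripts were considered, 9 of these intervals remained, and the rest lay within 3 kb of another transcript start. Of the 81 H3K4me3 intervals, 14 lay more than 3 kb from every outermost coding start. The matching shares over the windows of all coding genes were not computed, so these counts cannot be called high or low.

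The base composition of the promoters was read from hg19 around the canonical start. The median ratio of observed to expected CpG within 500 bp was 0.803 for the 45 genes, against 0.726 over all protein-coding genes. For the 17 genes without H3K4me3 at the canonical start it was 0.780, against 0.576 for all genes without the mark, and for the 28 with H3K4me3 it was 0.808, against 0.797. CCNE1 had a GC content of 82.0%, the highest of the 45.

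From 250 bases before to 50 bases after the canonical start, the E2F letters were found in 8 genes (17.8%), against 4.37% of all such windows, namely CCND1, CDK1, CDK10, E2F1, E2F2, E2F3, E2F5 and E2F8. The CHR letters were found in 11.1%, against 11.4%, and CCAAT in 42.2%, against 36%. The Sp1 box GGGCGG was found in 82.2%, against 61.4%, and TATAAA in 4.44%, against 9.62%. Both strands were searched, and no listed motif contains another. Of the 8 genes with E2F letters, 6 carried H3K4me3 at the canonical start, and E2F5 and E2F8 did not. Over all protein-coding genes 461 of the 868 with E2F letters carried it, and of the 45 genes 28 did with or without these letters.

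Other genes of the pathway were counted in the same way. Of 63 genes in 8 lists, 42 (66.7%) carried H3K4me3 and 33 (52.4%) carried H3K27ac at the outermost start, against 38.2% and 23.6% of all starts. For replication licensing, the loading of the replicative helicase, the counts were 9 and 9 of 11. The RB family and its DP partners had 4 and 3 of 6, the MuvB complex with MYB and FOXM1 5 and 5 of 7, and the CDC25 phosphatases with their opposing kinases 3 and 3 of 5. The other cyclins had 10 and 6 of 13, the mitotic kinases and the anaphase-promoting complex 5 and 4 of 10, the SCF ubiquitin ligase with CKS proteins 4 and 2 of 6, and the other CDK partners 2 and 1 of 5.

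The highest H3K4me3 values in these lists were 11.4 at CCNH, the cyclin of CDK7, 11.03 at SKP1, a subunit of SCF, and 10.99 at CKS1B. CCNH thus carried H3K4me3 while its kinase CDK7 had no interval of either mark. The highest H3K27ac values were 5.31 at CDC25C, the phosphatase that activates CDK1, and 5.12 at CCNL2, followed by 4.32 at each of BUB1B, CCNJ and MNAT1. Neither mark was found at the outermost starts of TFDP1, TFDP3, LIN37, CDC25A, CDC25B, AURKB, BUB1, MAD2L1, CUL1, CKS2, CCNC, CCNY, CDK11A and CDK11B. CDK11A and CDK11B are near-identical copies, to which reads may not be assigned uniquely. At the canonical start CDC25B, CUL1 and CCNY carried both marks. There LIN54, PCNA and CCNT2 carried neither mark, and CDC25C and MCM4 carried H3K4me3 without H3K27ac, unlike at their outermost starts. In total, 43 of the 63 genes carried H3K4me3 and 31 carried H3K27ac at the canonical start, against 41.8% and 25.5% of all canonical starts.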

How the data were processed

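ChIP-seq libraries of H3K27ac (antibody ab4729) and H3K4me3 (ab8580) from H2087 cells were analysed, 1 per mark, grouped by the labels. According to the submitters' processing notes and the methods, the authors aligned reads to hg19 with Bowtie 1.1.1 and called peaks with MACS2 2.1.0; the methods give normalization as the purpose of the input, while its use as control in peak calling, the cut-off and the treatment of duplicates are not given in the sources used here. The deposited last column has no header and was read as the −log10 q from its values, with minima of 1.306 and 1.303. Entries with several summits were collapsed to distinct intervals with their highest value, and positions are 1-based. With Python 3.11.15, pandas 2.3.3 and numpy 2.4.6, intervals were counted within 1 kb of gene starts and over genes with 10 kb of flank, in GENCODE 44 mapped to hg19 (282 coding genes without a canonical transcript were left out of canonical counts). The counting was tested on simulated intervals. The genes, lists and alternatives were chosen with earlier results of these data known. Named in full were, per class and mark, the gene with the highest −log10 q, the widest start interval and the longest length, the gene with H3K27ac alone, all genes without intervals and, of the pathway lists, the 3 highest per mark (with ties) and those without marks; further members were added to account for all 45. The depth is unknown, and PECAM1 was not found among the coding genes of the annotation.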

Additional observations from a re-analysis of the deposited data

How the results depend on the processing

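Of 44 alternatives to 10 counts and medians, 27 stayed within a factor of 1.5. With intervals kept from the median −log10 q of their list upwards, 15 genes kept H3K4me3 (33.3%, against 26.8% of all starts). H3K27ac stayed at 10 (22.2%, against 14.9%). Both marks were kept by 6 genes and overlapping intervals by 6. The median lengths fell to 245 bp (H3K4me3) and 0 bp (H3K27ac), and 13 H3K27ac intervals lay away from coding starts. At a −log10 q of at least 5, the counts were 6 for H3K4me3, 5 for H3K27ac, 2 for both and 36 for neither. With the start of any transcript, H3K4me3 marked 32 genes (71.1%, against 45.4% of all) and H3K27ac 19 (42.2%, against 30.7%). Under that setting 12 genes had neither mark, and 9 H3K27ac intervals lay away from coding starts. Under these alternatives the shares over all starts were computed for each mark separately, and not for both marks or for neither. The counts of both and neither thus have no share to be set against. An overlap of 50% of both intervals was met at 6 starts. Without flanks, the median lengths were 338 bp and 0 bp. Merging intervals within 1 kb gave median widths of 857 bp (H3K4me3) and 974.5 bp (H3K27ac). Fewer intervals, other starts, shorter windows or joined intervals are what these alternatives consist of; other causes were not tested. No paired analysis was possible because the marks were represented by single libraries, and for the same reason no replicate could be left out. The unknown depth limits every statement on unmarked starts. Values of −log10 q are not comparable between marks, and within a list a higher local copy number raises them.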
